A study of Brassica rapa with 12 samples.

Results

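The light response of Chiifu, a Chinese cabbage line that stands for the vegetable type of *Brassica rapa*, was measured by comparing 3 libraries from light seedlings with 3 from dark seedlings, which are 6 of the 12 libraries in the series. Whole Chiifu seedlings were taken at 1 week. The light group was kept under 16 h of light alternating with 8 h of darkness, and the dark group under 24 h of darkness. The sources used here do not state whether darkness covered the whole week, at what hour seedlings were taken, or how many seedlings went into a library. The remaining 6 libraries came from LP08, a second line given the same treatments. All 41018 features with an ID starting with Bra were considered, of 42186 features in each table, and 31088 of them passed the filter on low counts and were tested.

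As background, a seedling raised in darkness is etiolated, with a long hypocotyl, closed pale cotyledons and plastids that have not become chloroplasts. Light acts through phytochromes and cryptochromes to start photomorphogenesis, in which genes of photosynthesis and of protective flavonoids are switched on and genes of elongation growth are switched off. In *Arabidopsis*, a relative of *B. rapa*, light and the circadian clock also set the daily expression of glucosinolate and flowering genes. The count tables give no gene names, and a RefSeq gene table of this species (assembly CAAS_Brap_v3.01) held only 1 of the Bra IDs. The glucosinolate, flavonoid, clock and flowering genes were therefore not analysed here by name, seedling markers were not checked, and the results describe features by ID, level and size of response. The 1 matched ID, Bra000116 (SWEET9, of the SWEET family of sugar transporters), had a count of 0 in all 6 Chiifu libraries. A limit of 3 counts over their combined total is 0.00798 CPM.

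Light and dark Chiifu libraries formed separate sets, and the dark set was the wider one, mostly through dark replicate 3. Totals were 68798180 to 71764062 counts in light and 48970199 to 60338040 in dark. The first principal component of log2 CPM over the tested Bra features held 89.0% of the variance and separated the treatments, with the light libraries between 121.8 and 125.0 and the dark ones between -132.5 and -113.5. The second, with 6.66%, set Chiifu dark replicate 3 (-64.0) apart from dark replicates 1 (21.9) and 2 (46.4). Correlations across features were 0.989 to 0.992 between light libraries, 0.991 between dark replicates 1 and 2, and 0.966 to 0.977 between these and dark replicate 3. That library also had the smallest total and the highest share of counts in non-coding ENSRNA features, 2.90% against 0.706% and 1.32% in its sister libraries and 1.15 ± 0.05% in light (SD, n = 3). The median SD of log2 CPM between the 3 libraries of a group was 0.24 in dark and 0.13 in light. The SD over fewer libraries is smaller, so pairs were set against pairs. It was 0.134 between dark replicates 1 and 2, 0.208 and 0.263 for the dark pairs that held replicate 3, and 0.0955 to 0.123 for the light pairs. Most of the wider spread in the dark was thus in pairs with dark replicate 3. The pair without it was still above the light pairs by this SD, but within their range by correlation.

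Most tested features differed between light and dark in Chiifu, in both directions. At an edgeR quasi-likelihood adjusted p under 0.05, 10563 Bra features were higher in light (34% of the 31088 tested) and 10460 were lower (33.6%), together 67.6%. Changes of at least 2-fold were called for 7844 features higher in light (25.2%) and 6148 lower (19.8%), together 45%. The 3 light and 3 dark libraries did not overlap for 70.4% of tested features, with light higher for 36.2% and lower for 34.2%. Against a stricter null of a 2-fold change, edgeR's glmTreat called 5672 higher and 4138 lower. The log2 fold changes of all tested features had a median of 0.00, which TMM scaling sets near 0, 5th and 95th percentiles of -2.82 and 3.54, and quartiles of -0.85 and 1.12. Library totals moved the median to -0.10 and DESeq2 size factors to -0.02. The balance of directions depended on the scaling: 50.2% of called features were higher in light under TMM, 48.9% under DESeq2 size factors and 46% under library totals. For changes of at least 2-fold the shares were 56.1%, 54.4% and 50.8%, and library totals gave 7213 higher and 6987 lower.

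**Figure D1:**
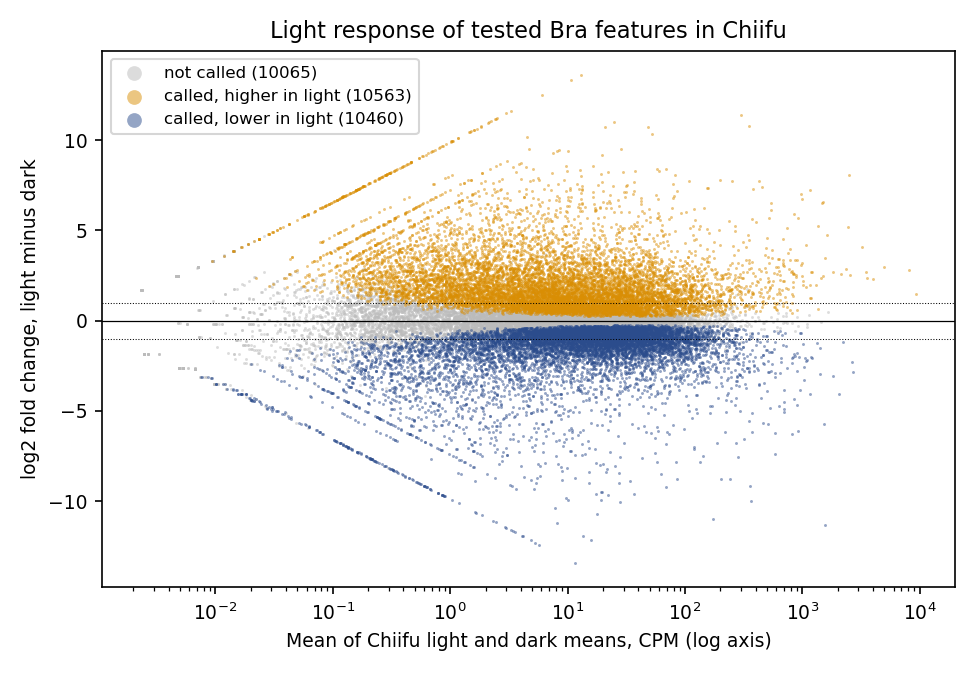
Log2 fold change (light minus dark) of each tested Bra feature in Chiifu against the mean of its light and dark levels in CPM on a log axis; orange points were called higher in light (10563), blue lower (10460), and dotted lines mark a 2-fold change. The straight diagonal rows at low levels are features with few or no reads in one treatment, whose fitted fold depends on a small prior count.

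The largest read shares in light were held by Bra028174 and Bra028181, which were also the most abundant features higher in light by the naming rule, out of 7743 called features at least 2-fold higher whose light and dark libraries did not overlap. Bra028174 was at 16053, 12171 and 14111 CPM in the 3 light libraries and at 2634, 2180 and 1318 CPM in the 3 dark ones. Every light library was above every dark one, and dark replicate 3 was the lowest. The means were 14112 ± 1941 CPM in light and 2044 ± 668 CPM in dark (SD, n = 3 each, edgeR log2 fold change 2.79, SE 0.30, adjusted p = 6e-06), a 6.90-fold ratio. By itself it held 1.41% of the scaled library total in light, and its rank by CPM was 12 in the dark.

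Bra028181 was the first-ranked feature by CPM in dark Chiifu and the second in light, so it was abundant under both treatments. Its levels were 15515, 11681 and 13872 CPM in light and 5795, 5065 and 4005 CPM in the dark. The groups did not overlap, and light replicate 2 was the lowest light library for this feature as for Bra028174. The means of 13689 ± 1923 and 4955 ± 900 CPM (SD, n = 3 each) differed by a log2 fold change of 1.47 (edgeR, SE 0.27, adjusted p = 0.000403), a 2.76-fold ratio.

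Among features lower in light, Bra013175 and Bra027042 had the highest dark levels of the 5939 that met the naming rule. In the dark libraries Bra013175 was at 5292, 4002 and 4829 CPM, and in the light libraries at 832, 561 and 592 CPM. All dark libraries were far above all light ones, and its rank by CPM went from 2 in the dark to 161 in light. The dark mean was 4708 ± 654 CPM and the light mean 662 ± 148 CPM (SD, n = 3 each, edgeR log2 fold change -2.83, SE 0.23, adjusted p = 6.35e-07), so the dark level was 7.11 times the light level. CPM is not divided by feature length, so these ranks order shares of reads, not numbers of transcripts.

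The dark libraries had Bra027042 at 4638, 2937 and 5535 CPM, and the light libraries at 939, 856 and 874 CPM. The dark libraries were spread widely, with replicate 3 the highest, while the 3 light libraries were nearly equal. The dark mean of 4370 ± 1320 CPM and the light mean of 890 ± 44.1 CPM (SD, n = 3 each) differed by a log2 fold change of -2.30 (edgeR, SE 0.24, adjusted p = 4.55e-06), and the dark level was 4.91 times the light level. For all 4 features the call and the direction held in each of the 15 alternatives computed. The naming rule required a call, a 2-fold change and no overlap in these same libraries, so these values are a description.

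**Figure D2:**
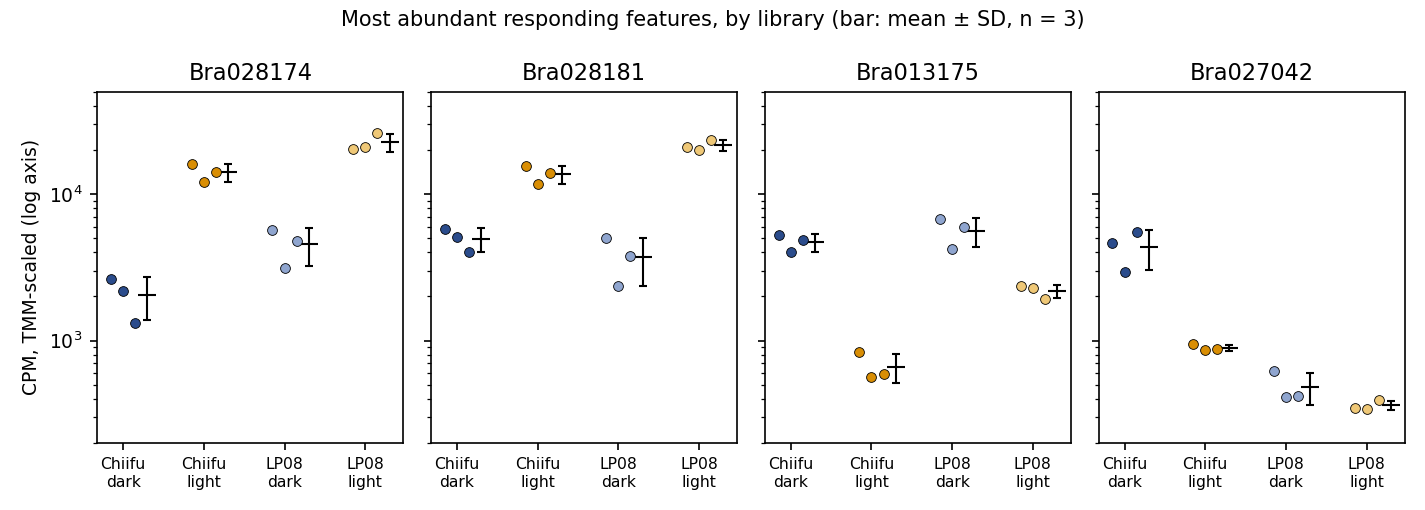
CPM (TMM-scaled, log axis) of the 4 features in every library, as points, with the mean ± SD of each group of 3 as a bar. In Chiifu the light and dark libraries of each feature do not overlap, as the naming rule requires. Bra027042 is far lower in LP08, with a mean of 483 CPM for dark and 360 CPM for light.

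The direction of the response varied with a feature's level, taken as the mean of its Chiifu light and dark levels. Of 5760 features under 1 CPM, 1785 were called higher and 1130 lower in light (31% and 19.6%). Of 10866 features at 1 to 10 CPM, 4140 were higher and 3126 lower (38.1% and 28.8%). At 10 to 100 CPM the order turned, with 3966 of 12792 higher and 5500 lower (31% and 43%). Features at 100 to 1000 CPM were more even, with 640 of 1614 higher and 685 lower. At 1000 CPM or more, 32 of 56 were higher and 19 lower, and 50 of the 51 changed by at least 2-fold. These orders held with DESeq2 size factors, with library totals and without dark replicate 3. For changes of at least 2-fold, the excess of lower over higher features was 2611 against 2470 at 10 to 100 CPM and 464 against 457 at 100 to 1000 CPM. Both turned without dark replicate 3, to 2411 against 2433 and 423 against 468. No test was made across classes, since features are not replicates.

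**Figure D3:**
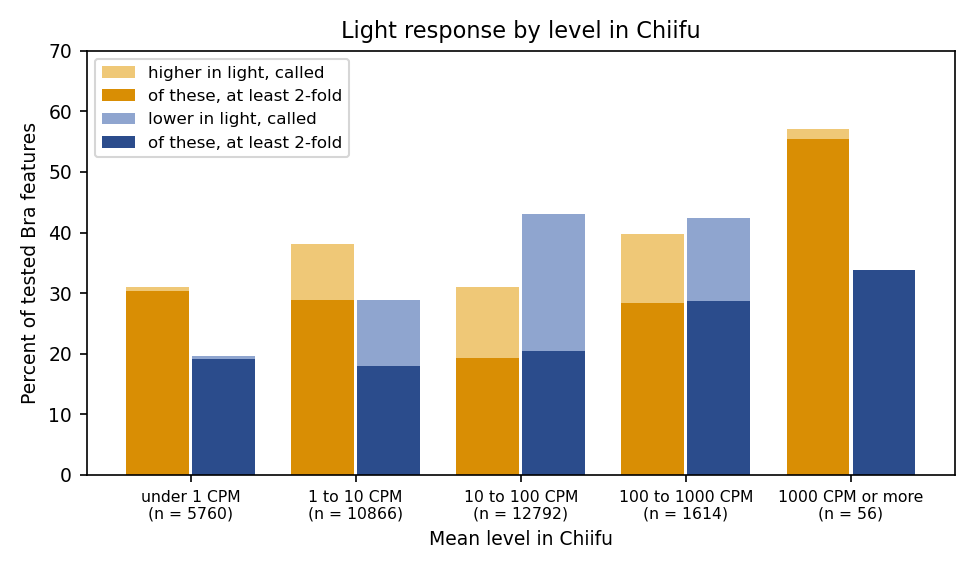
Percent of tested Bra features in each class of mean Chiifu level that were called higher (orange) or lower (blue) in light, with the dark part of each bar for changes of at least 2-fold. Lower features outnumber higher ones at 10 to 100 CPM (43% against 31%), and the reverse holds at 1 to 10 CPM (28.8% against 38.1%).

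Sizes of response covered several orders of magnitude. Among features higher in light, 3668 changed 2 to 4-fold, 2994 changed 4 to 16-fold, 751 changed 16 to 64-fold and 431 more than 64-fold. Among those lower in light the counts were 3622, 1724, 461 and 341. The tail of increases was thus longer, mainly at 4 to 16-fold. Fitted folds of features without a read in one treatment depend on the prior count. There were 159 such features among the 431 and 126 among the 341, and at a bound of 3 counts over the group 118 and 80 of them were under 64-fold. The fitted response was over 64-fold with reads in both treatments for 272 features higher and 215 lower in light. A single read in the lower group was enough to be counted here, so these folds can also depend on the prior count. The median level in the lower group was 0.0196 CPM in the dark for the 431 and 0.00954 CPM in light for the 341.

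Few features crossed from near silence to high abundance. Over all 41018 Bra features and with all 3 libraries of a group in the same class of level, 4 were under 1 CPM in dark libraries but at 100 CPM or more in light ones, and 135 went from under 1 CPM to 10 to 100 CPM. In the opposite direction, 5 were at 100 CPM or more in dark libraries but under 1 CPM in light ones, and 86 went from 10 to 100 CPM to under 1 CPM. Moves by 1 class were far more common, with 1290 features rising from the class under 1 CPM to that of 1 to 10 CPM with light, and 660 the other way. Between 1 to 10 CPM and 10 to 100 CPM, 1406 rose with light and 1208 fell. Between 10 to 100 CPM and 100 CPM or more, 470 rose and 528 fell. The same class held 13992 features under 1 CPM, 5000 at 1 to 10 CPM, 7529 at 10 to 100 CPM and 616 at 100 CPM or more in both treatments. For 8042 features the libraries of a group were not all in 1 class. The 13992 under 1 CPM in both treatments include 5128 without a read in any Chiifu library. No call or fold was required, so a feature near a boundary could change class on a small difference, and only TMM scaling was used.

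Switching from no read at all was rarer still. A count of 0 in all dark libraries beside 1 CPM or more in each of the light ones was found for 29 Bra features, and the opposite for 32. The levels of the 29 were 1.18 to 26.2 CPM in light, with a median of 3.20, and those of the 32 were 1.04 to 23.3 CPM in the dark, with a median of 2.81. Low levels were thus typical of both sets. The first count rose to 52 without dark replicate 2 and to 44 without dark replicate 3, and the second to 50 without light replicate 3, since fewer libraries then had to be without reads. In LP08, 17 of the 29 had reads in the dark and 16 of the 32 had reads in light. The LP08 mean reached 1 CPM for 10 of the 29 in light and for 22 of the 32 in the dark.

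In light, fewer features made up the bulk of the Chiifu transcriptome. The most abundant features that together held 50% of Bra counts numbered 948, 1253 and 1105 in the light libraries and 1582, 1598 and 1443 in the dark ones. Every light library was below every dark one, with means of 1102 ± 153 and 1541 ± 85 (SD, n = 3). The 100 most abundant features held 23.5%, 19.8% and 21.6% of all counts in light and 15.6%, 15.1% and 15.7% in the dark. Light replicate 1 was the most concentrated library and light replicate 2 the least of the light libraries. Both measures separated the groups fully, with an exact two-sided permutation p = 0.1 for each, the smallest that 20 arrangements of 3 against 3 allow. The number of features needed for 90% of Bra counts was 10396 ± 333 in light and 10285 ± 408 in the dark, which was within the spread between libraries (exact p = 0.7). The concentration in light thus lay among the most abundant features.

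**Figure D4:**
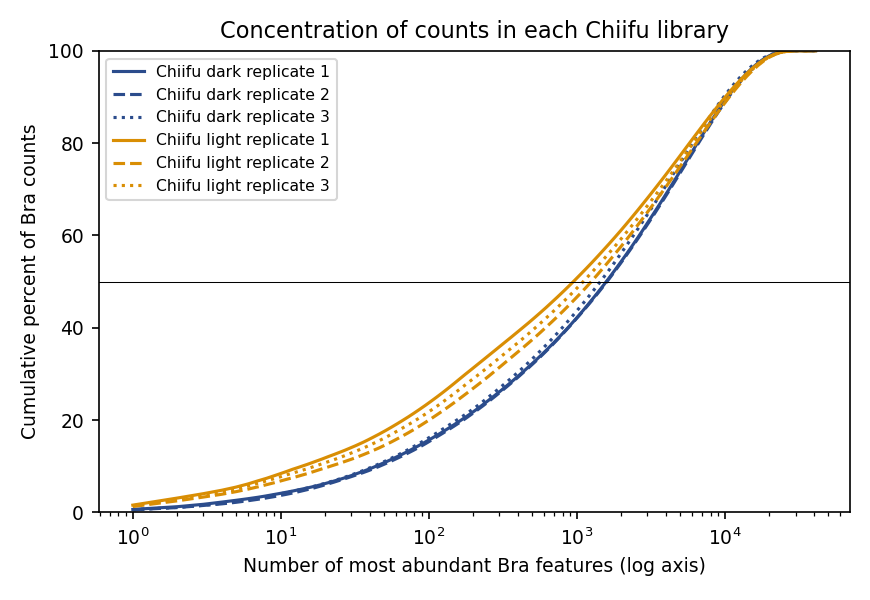
Cumulative percent of Bra counts held by the most abundant Bra features, ranked within each Chiifu library (log axis), with light libraries in orange and dark ones in blue. The light curves cross 50% at 948 to 1253 features and the dark ones at 1443 to 1598, and all meet near 90%.

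The features at the top of each treatment differed. All 10 of the highest-ranked features in light, and 88 of the highest-ranked 100, were called at least 2-fold higher there, against 25.2% of all tested features. Of the highest-ranked 100 in the dark, 73 were at least 2-fold lower in light, against 19.8% of all tested, and 7 at least 2-fold higher, and 15 features were in both lists of 100. Among the highest-ranked 1000, 451 were shared. The light list of 1000 held 537 features at least 2-fold higher and 77 at least 2-fold lower in light, and the dark list 104 and 510. A list ranked on a group's own level favours features that are high there, so these counts are a description.

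More features were also detected in light. At least 1 count was found for 32719 to 32839 Bra features per light library and for 31690 to 32405 per dark library. Light libraries were deeper, and after each Chiifu library was thinned at random to 48970199 counts the ranges were 32462 to 32622 and 31690 to 32290. The groups still did not overlap. The mean difference was 773 features before thinning and 608 after it (exact two-sided permutation p = 0.1 for each, the smallest possible). Before thinning, the permutation p adjusted over the composition measures was 0.13.

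Of the tested features, 10065 were not called, and this alone does not show that they kept their level. The 95% interval of the log2 fold change lay within 2-fold in both directions for 5589 of them (55.5%). Among uncalled features with a mean of at least 10 CPM the share was 86.0% (3113 of 3620), so at that level the data limit most of them to a change under 2-fold. The share did not keep rising with level, and was 76.5% (225 of 294) at a mean of at least 100 CPM. For 4476 uncalled features a 2-fold change was not excluded by the interval or no interval could be had, and 181 of these had no read in any Chiifu library and entered the test through LP08 alone. Another 3079 features were called and had an interval within 2-fold, so their changes were called but small. A call sets the difference of means against its standard error, and 759 of all called features had overlapping light and dark libraries.

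LP08 gave a view of the Chiifu response in libraries that had no part in choosing the features, although the filter and the dispersions were shared. Of all tested features, LP08 called 68.6% in either direction. Of the 7844 features at least 2-fold higher in light in Chiifu, 5806 (74.0%) were called higher in LP08, against 33.1% of all tested features, and 293 (3.74%) were called lower. Of the 6148 at least 2-fold lower, 5004 (81.4%) were called lower in LP08, against 35.5% of all tested, and 127 (2.07%) higher. For the lower features the share rose with the size of the Chiifu response, from 67.0% of those under 2-fold to 87.4% of those over 64-fold. For the higher features it was 66.3% under 2-fold, 75.2% at 4 to 16-fold and 69.6% over 64-fold. The test of the difference between the responses called 36.6% of the higher and 29.3% of the lower features at least 2-fold changed in Chiifu, and 29.3% of all tested features (9107). Since the features were chosen by their change in Chiifu, nothing is read from the direction of these differences.

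**Figure D5:**
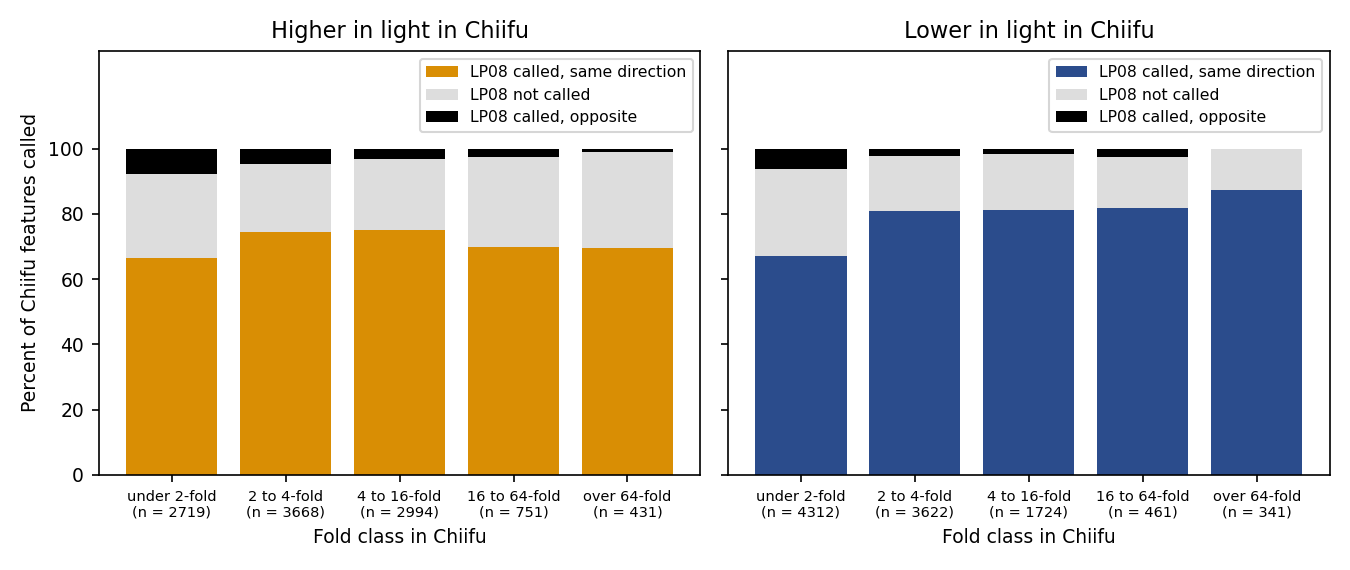
For Bra features called higher (left) or lower (right) in light in Chiifu, grouped by the size of the Chiifu response, the percent that LP08 called in the same direction (colour), did not call (grey) or called in the opposite direction (black). The coloured share is 66.3% to 75.2% on the left and rises from 67.0% to 87.4% on the right.

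The levels of the 4 features given by ID in LP08 are set beside those in Chiifu as a description, since they were chosen by their Chiifu change. In LP08, Bra028174 was at 22584 ± 3232 CPM with light and 4544 ± 1306 CPM without, and its response was not shown to differ from that in Chiifu (difference -0.47, LP08 minus Chiifu, edgeR adjusted p = 0.402). Bra013175 in LP08 was at 5648 ± 1273 CPM in dark libraries and 2186 ± 226 CPM in light libraries (difference 1.46, adjusted p = 0.00491). In LP08, Bra027042 was at only 483 ± 119 CPM in dark libraries and 360 ± 25.6 CPM in light libraries, a change that was not called (log2 fold change -0.42, adjusted p = 0.12), and the fitted difference was 1.87 (adjusted p = 0.00166). Bra028181 was at 21578 ± 1842 and 3702 ± 1332 CPM (SD, n = 3 each), with a fitted difference of 1.08 (edgeR adjusted p = 0.0468). That last call was lost in 12 of 20 alternatives, with adjusted p from 0.00534 to 0.109 over all of them.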

How the data were processed

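RNA of whole seedlings was made into stranded mRNA libraries, per the labels' protocols. The deposited tables, 1 per library, hold raw read counts, whole numbers that the authors had not normalized. FastQC, TopHat2, featureCounts and edgeR are listed, without roles, in the submitters' processing notes. Build, annotation and strand setting are not stated in those sources, so copies, overlapping and antisense features that share reads could not be told apart.

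All 12 libraries (4 groups of 3) were fitted in R 4.3.3 with edgeR 4.0.16: filterByExpr by group (minimum count 10, minimum total 15), TMM scaling, and a robust quasi-likelihood test of Chiifu light against dark. The filter kept 31239 features, of which 31088 were Bra features, and p-values were adjusted (Benjamini-Hochberg) over all of them. A feature can pass it through its high group alone, so counts over tested features are descriptions. CPM is relative to the TMM-scaled total. Log2 CPM used a pseudocount of 0.5, and intervals are 95%. The lowest Chiifu total gives 0.0613 CPM for 3 counts. Intervals and floors cover counting error or the spread between libraries, which could be technical, since the labels name no separate plants. Features given by ID are the 2 higher and the 2 lower in light with the highest mean CPM in their higher group, among those called, at least 2-fold changed and without overlap between treatments. Bra features, comparisons and this rule were chosen with earlier results of these data known. Within-group pairs differed beyond counting noise (lowest chi-square divided by its degrees of freedom, 33.0). No library thus matched another to within counting noise, and differences between sequencing runs were not tested. This check cannot tell whether libraries were made from the same seedlings or RNA. Same-numbered light and dark Chiifu libraries had deviations that correlated by 0.26, -0.03 and 0.11, and differently numbered ones by -0.18 to 0.08. This did not settle whether numbers mark pairs. The labels state no pairing, so numbers were not taken as pairs in the main test. Alternatives used DESeq2 1.42.0 and limma 3.58.1. The procedure was tested on simulated data in which few features changed, so scaling where most features differ was not tested.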

Additional observations from a re-analysis of the deposited data

Results flagged for a closer look

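The light responses of LP08 and Chiifu differed by the edgeR test of the difference for 9107 of 31088 tested Bra features (29.3%). Over 20 alternatives this count was 6769 to 11031, lowest without Chiifu light replicate 2 and highest with the DESeq2 Wald test. The edgeR test also called 3 of the 4 features given by ID. The differences, LP08 minus Chiifu on the log2 scale, were 1.08 for Bra028181, 1.46 for Bra013175 and 1.87 for Bra027042 (edgeR adjusted p = 0.0468, 0.00491 and 0.00166). The call of Bra028181 was lost in 12 of 20 alternatives, with adjusted p from 0.00534 to 0.109. These features were chosen by their change in Chiifu, so nothing is read from the direction of the differences. In all 3 libraries of each group, Bra028181 was higher and Bra013175 lower in light in both lines. For Bra027042 the LP08 light and dark libraries lay at 343 to 389 and 413 to 621 CPM.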

How the results depend on the processing

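Of 305 recomputed values, 283 kept their direction and their side of the threshold or, for counts, stayed within 1.5 times the reported value. Values of the spread between libraries were judged by their distance from the reported one. The permutation p of the composition measures cannot go below 0.1, so those values could change in direction only. The count of Bra features called with light in Chiifu was 19333 to 21654 over 15 alternatives, 19423 to 21361 when 1 Chiifu library was left out. The number of features tested also varied. The share called ranged from 56.7% of 37303 without the filter to 70.8% of 27293 with a stricter filter on low counts. With 1 Chiifu library left out it was 61.7% to 67.6%, against 67.6% in the main test. With the replicate number as a block the count was 20590, and the pairing check did not settle whether that fit applies. Features on in light without reads in the dark numbered 50 at 0.5 CPM and 16 at 2 CPM, and 30 to 52 over left-out libraries. The opposite set numbered 16 at 2 CPM and 32 to 50 over left-out libraries. Over left-out libraries the light minus dark difference in the number of features for 90% of counts was -119 to 278, negative without dark replicate 3 and without light replicate 2, and that in the ENSRNA share was -0.96 to 0.14 percentage points, positive without dark replicate 3. The median SD in the dark minus that in light was 0.0041 to 0.14 over left-out libraries. These values set 2 libraries against 3, which lowers the SD of the group left with 2, so the lowest, without dark replicate 3, does not show an equal spread. With 1 library of a group left out, the fit takes the spread from all groups. Thinning was added after seeing the data. Depth limits features near 3 counts per library.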
